A study of Mus musculus with 28 samples.

Results

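Crkl, Pi4ka, Hic2, Pak2, Dlg1 and Senp5 are 6 genes of mouse chromosome 16 that lay inside amplified DNA in sarcomas of mice with monomeric p53. They were taken by name, after their copy ratios in sarcomas of both genotypes were known, so the sarcoma comparison chose them and is described here without a test. All 6 were matched by symbol in the RefSeq annotation of GRCm38.p6, out of 20665 autosomal protein-coding genes. Hic2, Pi4ka and Crkl lie near the end of the chromosome closest to the centromere, at 17233587 to 17263430, 17280351 to 17406314 and 17451985 to 17487440. Dlg1, Senp5 and Pak2 lie further along, at 31663443 to 31873356, 31959670 to 32003287 and 32016290 to 32079342. Values cover whole genes, exons and introns together.

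DNA copy number was measured by exome sequencing in 24 tumours of mice with a germline change of p53. The AD allele encodes a p53 that forms dimers and the RP allele a p53 that stays a monomer, and each was carried opposite a null allele (genotypes p53 AD/- and p53 RP/-). Every mouse was of equal BALB/C and C57BL6 parentage, and tumours were taken at end point; ages are not used here. Thymic lymphomas, tumours of T cells, came from 7 mice of each genotype, and sarcomas, tumours of connective tissue, from 5 of each. The titles give 24 different animal numbers, so each tumour is 1 animal and 1 replicate. Both genotypes lack wild-type p53, so no group shows these genes in tumours with an intact p53. The 4 ear samples of the series are not analysed here.

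Each value is a copy ratio on the log2 scale, and the DNA that a tumour was set against is not named in the sources used here. A value of 1 is a doubling of the ratio, and was taken as the level of amplification; 0.3 was taken as a gain and -0.3 as a loss. Admixed normal cells move a value closer to 0, and tumour purity is not known. Chromosome 16 had 6511 markers in AD thymic lymphomas, 6512 in RP thymic lymphomas and 6514 in sarcomas, and read depth is unknown. The T-cell receptor beta region on chromosome 6, 41 to 42 Mb, which T cells rearrange with loss of DNA, had a median of -0.58 in AD and -1.84 in RP thymic lymphomas, against -0.02 and -0.03 in AD and RP sarcomas. The region ran from -1.86 to -0.08 in AD and from -1.96 to -0.79 in RP thymic lymphomas. In AD sarcomas it ran from -0.16 to 0.00, so AD thymic lymphomas and AD sarcomas overlapped. The difference between AD and RP thymic lymphomas at this region was not tested. Trp53 itself ran from -0.23 to 0.36 over the 24 tumours.

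Amplification is a focal rise in the number of copies of a stretch of DNA, often kept as tandem repeats or as extrachromosomal circles, and a stretch carries all of its genes along. Crkl encodes an adaptor protein with SH2 and SH3 domains that links activated receptors and kinases to small GTPases, and it is a known target of amplification in human tumours. Pi4ka encodes the kinase that makes phosphatidylinositol 4-phosphate at the plasma membrane, and Hic2 encodes a zinc finger repressor of transcription related to Hic1. Pak2 encodes a kinase activated by the small GTPases Rac and Cdc42, which acts on the cytoskeleton and cell survival. Dlg1 encodes a scaffold protein of cell polarity and synapses, and Senp5 a protease that removes SUMO from proteins. The Crkl neighbourhood corresponds to the DiGeorge region of the human genome.

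The promoters of the Crkl block are shown because the left ends of the amplified segments fall among them. Each line gives the 250 bases before a transcription start from RefSeq, build GRCm38.p6, on the strand of the gene. Pi4ka has 2 starts in the table, and the window shown is that of the start inside the annotated gene; it was chosen after the sequences were seen. The window before the outer start held 0 GC boxes. Capitals mark the letters GGGCGG or CCGCCC, a GC box on either strand, and TGACGTCA, which reads the same on both strands; the latter was chosen after the sequences were seen.

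Crkl promoter, chr16:17451735-17451984, + strand: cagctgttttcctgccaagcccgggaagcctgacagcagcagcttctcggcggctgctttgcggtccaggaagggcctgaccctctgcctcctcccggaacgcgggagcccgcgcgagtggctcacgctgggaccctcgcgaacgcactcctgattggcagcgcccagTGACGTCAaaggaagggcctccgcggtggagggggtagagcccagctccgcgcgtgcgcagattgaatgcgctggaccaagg

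Pi4ka promoter, chr16:17405866-17406115, - strand: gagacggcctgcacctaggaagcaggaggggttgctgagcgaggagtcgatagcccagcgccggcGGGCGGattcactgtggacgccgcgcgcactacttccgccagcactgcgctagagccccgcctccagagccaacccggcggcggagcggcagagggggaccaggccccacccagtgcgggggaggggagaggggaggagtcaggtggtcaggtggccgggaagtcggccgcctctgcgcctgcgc

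Hic2 promoter, chr16:17233337-17233586, + strand: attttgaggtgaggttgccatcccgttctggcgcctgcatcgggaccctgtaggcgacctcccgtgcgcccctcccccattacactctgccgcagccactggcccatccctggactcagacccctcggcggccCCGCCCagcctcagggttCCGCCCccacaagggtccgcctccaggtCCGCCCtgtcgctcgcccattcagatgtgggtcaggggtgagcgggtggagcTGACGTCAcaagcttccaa

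Of the members, 5 were matched in the promoter table, with 9 starts in all. A GC box was found in 4 of these 9 windows and in 32.7% of 32851 promoter windows of the same length. TGACGTCA was found in 2 of the 9, those of Crkl and Hic2, and in 1.55% of all windows. Because TGACGTCA was chosen after these sequences were seen, nothing is read from that difference. A single unit of the p53 response element was found in 0 of the 9 and in 7.13% of all windows. A match is a description of these letters and not of bound protein.

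Crkl was amplified in 2 of 24 tumours, both RP sarcomas. In the RP sarcomas its log2 copy ratio was -0.03 in replicate 1, 0.00 in replicate 2, 1.42 in replicate 3, 0.20 in replicate 4 and 3.01 in replicate 5. In the AD sarcomas it was 0.10, 0.06, 0.17, 0.04 and -0.02 in replicates 1 to 5. RP sarcomas 3 and 5 stood above all other sarcomas, while RP sarcomas 1 and 2 lay at or below the lower AD values, so the genotypes overlapped. As linear ratios these values were 2.68 in RP sarcoma 3 and 8.04 in RP sarcoma 5. The group means were 0.92 ± 1.31 (SD, n = 5) in RP and 0.07 ± 0.07 (n = 5) in AD sarcomas, and their difference of -0.85, AD minus RP, was smaller than the RP standard deviation. The difference shrank to -0.33 when RP sarcoma 5 was left out, was -0.72 when RP sarcoma 3 was left out and 0.01 when neither was kept.

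Pi4ka and Hic2, the left neighbours of Crkl, were amplified in 1 tumour only. Both had 3.01 in RP sarcoma 5, like Crkl, but 0.23 in RP sarcoma 3, and -0.03, 0.00 and 0.20 in RP sarcomas 1, 2 and 4. RP sarcoma 3 therefore separated Crkl from Pi4ka by 1.19 on the log2 scale, while in RP sarcoma 5 the difference was 0.00 and in the other 22 tumours it was under 0.1. The RP means of Pi4ka and Hic2 were 0.68 ± 1.30 (SD, n = 5) against 0.07 ± 0.07 in AD sarcomas, and the difference of -0.61 fell to -0.03 without RP sarcoma 5. In that tumour the amplified segment covered 28.1% of Hic2, its right end, and the rest of the gene lay in a gap without markers.

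Pak2, Dlg1 and Senp5 were amplified in the same 2 RP sarcomas, with the order of the tumours turned round. Each of these genes stood at 1.47 in RP sarcoma 3 and at 1.17 in RP sarcoma 5, and at -0.03, 0.00 and 0.20 in RP sarcomas 1, 2 and 4. The AD sarcomas had the same values as for Crkl, 0.10, 0.06, 0.17, 0.04 and -0.02, because 1 segment covered both blocks in each of them. Linear ratios were thus lower at Pak2 than at Crkl in RP sarcoma 5, where Crkl minus Pak2 was 1.84 on the log2 scale, and close to equal in RP sarcoma 3, where it was -0.04. The means were 0.56 ± 0.70 (SD, n = 5) in RP and 0.07 ± 0.07 in AD sarcomas. Their difference was -0.49, AD minus RP. Leaving out RP sarcoma 3 gave -0.26, leaving out RP sarcoma 5 gave -0.34, and leaving out both gave 0.01.

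**Figure D1:**
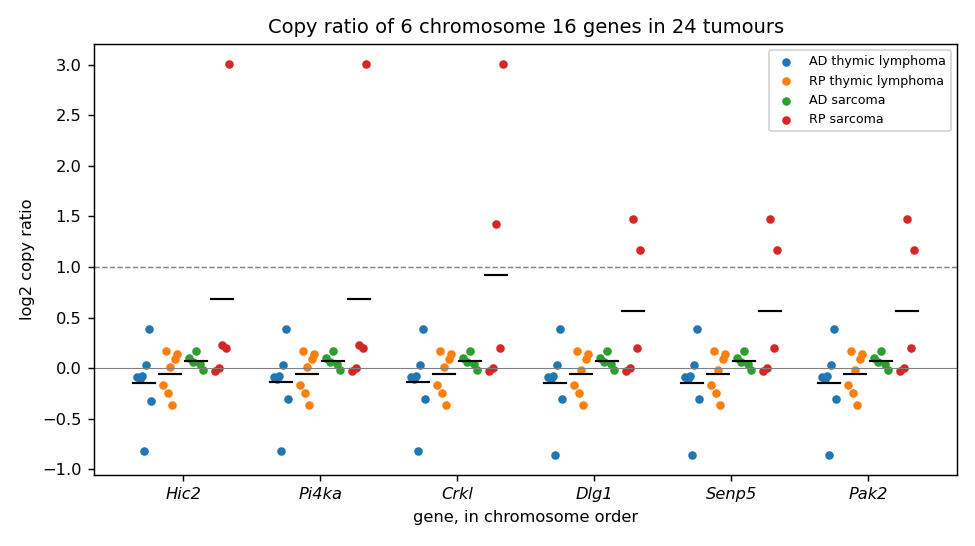
Log2 copy ratio (y axis) of the 6 genes (x axis, in chromosome order) in 24 tumours; each point is 1 tumour, colours are the 4 groups, short lines are group means and the dashed line marks log2 1. For Crkl, Dlg1, Senp5 and Pak2 the points of RP sarcomas 3 and 5 lie above the dashed line, and for Hic2 and Pi4ka the point of RP sarcoma 5 does.

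Few genes reached this level in these tumours. In RP sarcoma 5, all 6 members were at log2 1 or more, against 0.329% of all genes, and in RP sarcoma 3 it was 4 of 6, against 0.198%. At the gain level of 0.3 the shares of all genes were 0.576% in RP sarcoma 5 and 0.847% in RP sarcoma 3. Genes amplified in both tumours were 37, or 0.179% of all genes, and the 37 lie on chromosome 16. Genes amplified in at least 2 of 10 sarcomas made up 0.276%, and the 57 of them were these 37 with 18 on chromosome 2, 1 on chromosome 5 and 1 on chromosome 7. The members were chosen from these tumours, so nothing is read from their share. All 3 autosomal segments at log2 1 or more in RP sarcoma 3, and 5 of 6 in RP sarcoma 5, lay on chromosome 16, and the remaining 1 had 3 markers.

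The Crkl block had different left ends and a shared internal step in the 2 tumours. In RP sarcoma 3 the amplified run, a row of neighbouring segments at log2 1 or more, went from 17452477 to 17980564, a length of 528 kb with 186 markers. Its left end fell in a gap of 24.3 kb without markers, from 17428142 to 17452477, which holds the end of Snap29 and the start of Crkl. The Crkl promoter printed above lies in that gap, so its copy number in RP sarcoma 3 is not resolved; 98.6% of the gene lay in the amplified segment. In RP sarcoma 5 the run went from 17255040 to 19486839, 2.23 Mb with 512 markers and 50 genes touched. Its left end fell between 17208713 and 17255040, a gap of 46.3 kb that holds the Hic2 promoter. The Pi4ka window printed above lay in the segment at 3.01 in RP sarcoma 5 and in the segment at 0.23 in RP sarcoma 3.

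Within the Crkl block the level fell in steps to the right in both tumours. RP sarcoma 3 had 1.42 up to 17635481, inside the sphingomyelinase gene Smpd4, and 1.01 from there to 17980564. RP sarcoma 5 had 3.01 up to 17626429, also inside Smpd4, and 2.65 to the same 17980564. At the gap from 17980564 to 18060709, 80.1 kb between Vpreb2 and Dgcr6, RP sarcoma 3 fell by 0.68 and RP sarcoma 5 fell by 1.16. The next stretch stood at 0.33 in RP sarcoma 3 and at 1.49 in RP sarcoma 5. RP sarcoma 5 rose again to 2.34 from 18620721 to 19486839, and then fell by 2.11 to 0.23 within a cluster of olfactory receptor genes, at Olfr166.

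**Figure D2:**
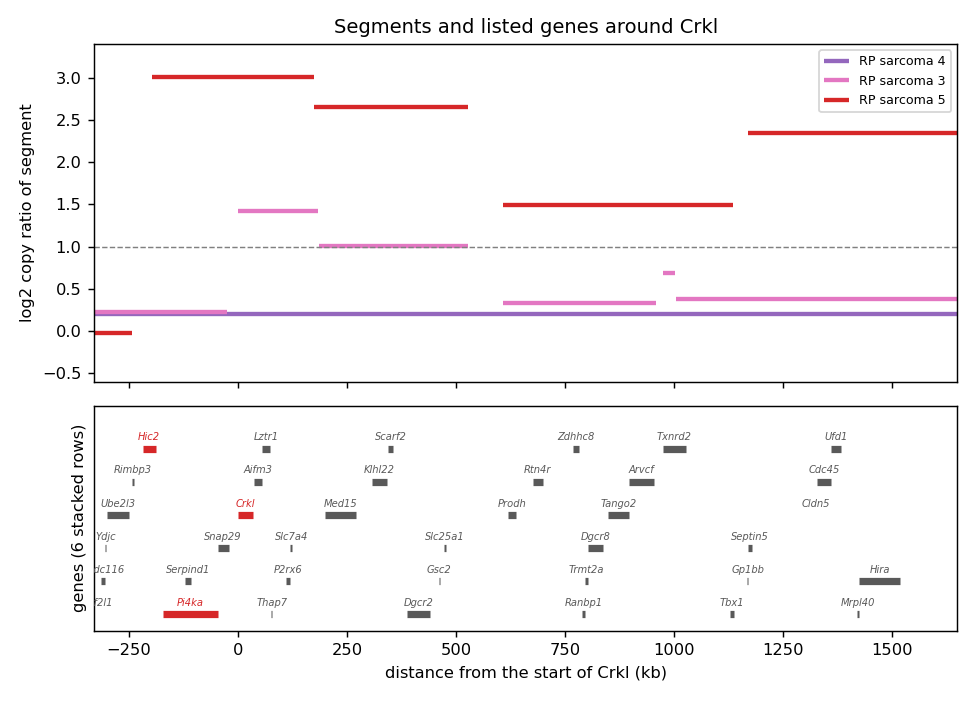
Top, log2 copy ratio of segments (y axis) in RP sarcomas 3, 4 and 5 against distance from the start of Crkl in kb (x axis), with a dashed line at log2 1; bottom, most of the listed genes as bars in 6 rows stacked for legibility, members in red. The amplified segments of RP sarcoma 3 begin at Crkl, those of RP sarcoma 5 begin within Hic2, and both step down at the same gap, where the level fell by 0.68 and 1.16.

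The stretch amplified in both tumours at the Crkl block touched 20 genes, from Crkl to Vpreb2. It was the whole run of RP sarcoma 3 and 23.7% of that of RP sarcoma 5. Crkl was the only member in it, and its left neighbour Snap29, a gene of membrane fusion, stood at 0.23 and 3.01. To its right, the genes Aifm3, Lztr1, Thap7, P2rx6 and Slc7a4 had the same 1.42 and 3.01 as Crkl. Lztr1 encodes an adaptor for ubiquitination of Ras proteins. Med15, a subunit of the Mediator complex, and the genes Klhl22, Scarf2, Dgcr2 and Slc25a1 stood at 1.01 and 2.65. The 1.01 of RP sarcoma 3 lies just above the cutoff of 1. The count of 20 genes here, and that of 37 genes amplified in both tumours, therefore depend on that cutoff. Rimbp3, to the left of the block, was at 0.23 in RP sarcoma 3 and -0.02 in RP sarcoma 5.

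Of the 40 listed neighbours of Crkl, 11 were at log2 1 or more in RP sarcoma 3 and 31 in RP sarcoma 5. The 20 that separated the tumours include Dgcr8, a subunit of the microRNA processing complex, and Ranbp1, a regulator of the GTPase Ran, each at 0.33 in RP sarcoma 3 and at 1.49 in RP sarcoma 5. Hira, a histone chaperone gene, and Cdc45, a gene of the replicative helicase, stood at 0.38 and 2.34. The transcription factor gene Tbx1 had 0.38 and 1.49. In the other 8 sarcomas these genes ran from -0.03 to 0.20.

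The same stretch holds 4 microRNA genes, which were at 1.49 in RP sarcoma 5 and at 0.33 in RP sarcoma 3. The 6 mature sequences matched to them in RefSeq are shown because they were amplified in 1 of the 2 tumours. These are the sequences matched there and may not include every arm. Capitals mark the seed, bases 2 to 8, and the 6 seeds differ from each other.

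mmu-miR-6366: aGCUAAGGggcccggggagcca

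mmu-miR-1306-3p: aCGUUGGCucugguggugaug

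mmu-miR-1306-5p: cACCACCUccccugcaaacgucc

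mmu-miR-3618-3p: cUACAUUAaugaaaagagcaau

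mmu-miR-3618-5p: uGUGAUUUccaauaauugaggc

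mmu-miR-185-3p: aGGGGCUGgcuuuccucuggu

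The microRNA genes Mir130b and Mir301b lie to the left of the block, and stood at 0.23 in RP sarcoma 3 and -0.02 in RP sarcoma 5. A DNA copy ratio gives no level of the mature microRNA.

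The Pak2 block shared its right end in both tumours. The amplified run went from 30366834 to 32186375 in RP sarcoma 3, 1.82 Mb with 173 markers and 21 genes touched. In RP sarcoma 5 it went from 30957337 to the same 32186375, 1.23 Mb with 142 markers and 17 genes touched, all of it inside the run of RP sarcoma 3 and 67.5% of that run. Both tumours stepped down in the gap from 32186375 to 32233082, 46.7 kb between Bex6 and Fbxo45, where RP sarcoma 3 fell by 1.60 and RP sarcoma 5 fell by 1.53. Pak2 ends to the left of that gap, with Pigx, Cep19, Nrros and Bex6 between them. The ubiquitin ligase gene Rnf168 and the transferrin receptor gene Tfrc, to the right of it, stood at -0.13 in RP sarcoma 3 and -0.36 in RP sarcoma 5.

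The genes amplified in both tumours at this block ran from Xxylt1 to Bex6 and numbered 17. Among them were Dlg1, Senp5 and Pak2, the ArfGAP gene Acap2, the phosphatase inhibitor gene Ppp1r2, the lipoprotein gene Apod and the ketone body enzyme gene Bdh1, each at 1.47 and 1.17. Of the 37 listed neighbours other than members, 15 were at log2 1 or more in RP sarcoma 3 and 11 in RP sarcoma 5. Tmem44, Lsg1 and Fam43a, at the left, stood at 1.47 in RP sarcoma 3 and 0.58 in RP sarcoma 5. Hes1, a target gene of Notch signalling, lies outside both runs and had 0.44 and 0.58.

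**Figure D3:**
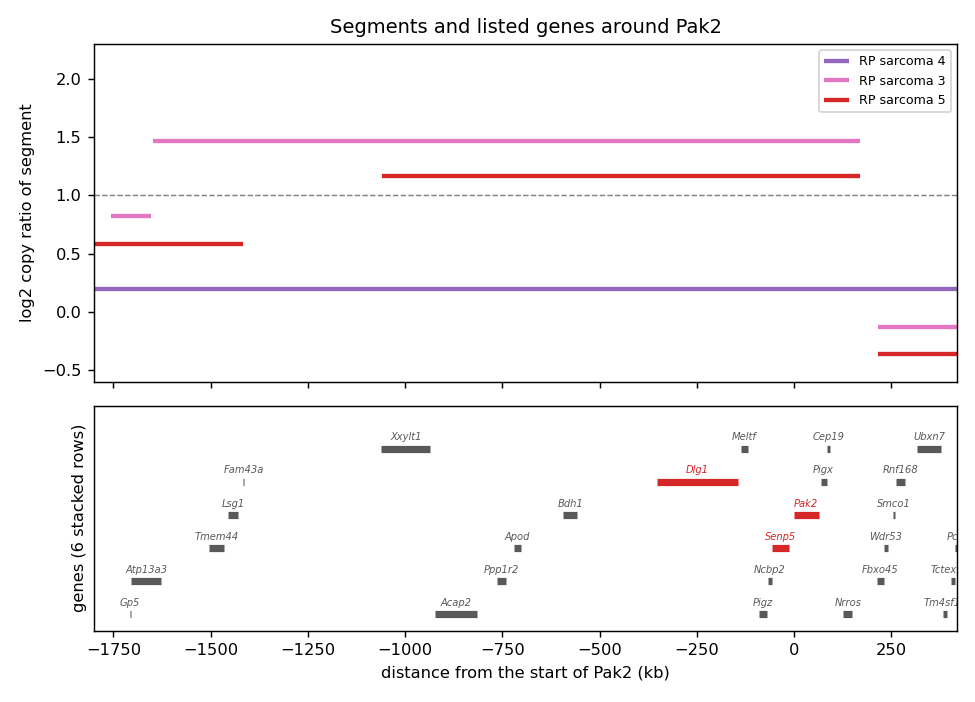
Top, log2 copy ratio of segments (y axis) in RP sarcomas 3, 4 and 5 against distance from the start of Pak2 in kb (x axis), with a dashed line at log2 1; bottom, listed genes as bars in 6 stacked rows, members in red. The segments at 1.47 and 1.17 end at the same gap to the right of Pak2, beyond which both tumours lie below 0.

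Between the amplified runs neither tumour was at the amplified level on average, and neither was at 0. From the end of the Crkl run to the start of the Pak2 run of the same tumour, the length-weighted mean was 0.42 in RP sarcoma 3 (8 segments, 1193 markers) and 0.34 in RP sarcoma 5 (2 segments, 976 markers), linear ratios of 1.34 and 1.26. Over the fixed window from 18 to 31 Mb the means were 0.47 and 0.53, against -0.03 to 0.20 in the other 8 sarcomas. That window holds the right part of the Crkl run of RP sarcoma 5 and the left ends of both Pak2 runs, and the order of the tumours is turned in it. In RP sarcoma 3 the largest piece, from 18456023 to 28189423 with 917 markers, stood at 0.38. In RP sarcoma 5 the piece from 19514695 to 27321338, with 771 markers, stood at 0.23. Towards Pak2 the level rose in both. RP sarcoma 3 passed through 0.78 over 5 markers in Fgf12, 0.24 over 5 markers, 0.91, 0.44 and 0.82 before 1.47. RP sarcoma 5 had 1 step to 0.58, from 27324522 to 30600599, before 1.17.

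Cancer genes between the blocks followed these levels. Bcl6, a transcriptional repressor of lymphoid cells, Etv5, an ETS factor, Igf2bp2, an RNA-binding protein, Lpp and Trp63, a relative of p53, were each at 0.38 in RP sarcoma 3 and 0.23 in RP sarcoma 5. Of the 29 landmark genes of chromosome 16 other than Crkl and Pak2, 11 were gained in RP sarcoma 3, 2 were gained in RP sarcoma 5 (Fgf12 and Hes1), and 0 reached log2 1 in either. Over all genes, 0.847% were gained in RP sarcoma 3 and 0.576% in RP sarcoma 5. Most of the landmark genes gained in RP sarcoma 3 lay on its segment at 0.38, so they are not separate events. Runx1, Erg and Ets2, near the far end, stood at -0.13 and -0.36.

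Both blocks were amplified together in 2 of 24 tumours, and 1 block without the other in 0. The members were chosen from these tumours, so nothing is read from that count. At a cutoff of 1.5, Crkl was amplified in 1 tumour and Pak2 in 0. In RP sarcoma 3 the amplified part of the Crkl block left out Pi4ka and Hic2, at 0.23. Beyond the Pak2 block, from 34 Mb to the end, chromosome 16 stood at -0.13 in RP sarcoma 3 and -0.36 in RP sarcoma 5. Only the value of RP sarcoma 5 passed the loss level of -0.3. RP sarcoma 4 had no peak at either block. Its segment from 3592397 to 33803031, over all 6 members, stood at 0.20, a short piece with 10 markers at Muc13 and Itgb5 at 0.57, and the rest of the chromosome at -0.05. The level of this tumour fell by 0.61 at its last step, in Itgb5, to the right of the shared right end. In the AD sarcomas the means from 18 to 31 Mb and from 34 Mb to the end were 0.10 and 0.10, 0.06 and 0.01, 0.17 and 0.17, 0.04 and 0.04, and -0.02 and -0.02. No AD sarcoma had a step before 33 Mb.

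**Figure D4:**
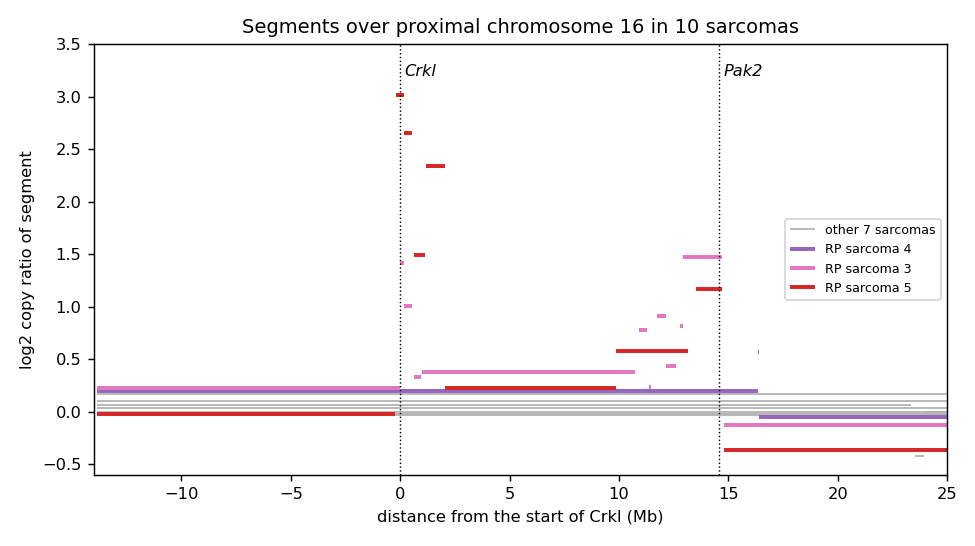
Log2 copy ratio of segments (y axis) against distance from the start of Crkl in Mb (x axis) in 10 sarcomas; RP sarcomas 3, 4 and 5 are coloured, the other 7 are grey, and dotted lines mark Crkl and Pak2. RP sarcomas 3 and 5 show 2 peaks with lower steps between them and levels of -0.13 and -0.36 beyond Pak2, while RP sarcoma 4 shows 1 long step at 0.20.

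Chromosome 16 before 33 Mb was cut by 12 steps in RP sarcoma 3 and by 8 in RP sarcoma 5, against 0 in each of the other 8 sarcomas. These tumours shared 2 of those steps, 16.7% of the first set and 25% of the second, and both shared steps were found in 2 of 24 tumours. On the other autosomes they had 65 and 52 steps and shared 1. A step can only be placed between neighbouring markers, so a shared step is a shared gap, 80.1 and 46.7 kb wide here, and not a shared base. Whether wide gaps explain the shared steps was not tested. The gap from 28929452 to 29209975, between Mb21d2 and Plaat1, held a step in RP sarcoma 3 and in AD thymic lymphoma 4.

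Thymic lymphomas carried these genes on large segments and amplified none of them. In AD thymic lymphomas Crkl had a lowest value of -0.82, a median of -0.09 and a highest of 0.39, and in RP thymic lymphomas -0.36, 0.01 and 0.17. Pak2 had -0.86, -0.09 and 0.39 in AD and -0.36, -0.02 and 0.17 in RP tumours. The groups overlapped, with the RP values inside the AD range. The highest value was that of AD thymic lymphoma 6, on a segment from 3592397 to 36217662 at 0.39 with 3596 markers, in a chromosome with a mean of 0.37.

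AD thymic lymphoma 4 had the lowest values and the most broken chromosome 16, with 26 segments. Its segment over Crkl, from 3592397 to 26989908, stood at -0.82 with 2643 markers, and that over Pak2, from 29209975 to 36217662, at -0.86 with 920. Between them lay short gained pieces at 0.34 and 0.41, with 15 and 12 markers, the second in Fgf12 and Mb21d2. Further along, outside the members, 4 segments of this tumour reached log2 1, up to 1.22 from 74410851 to 80000087. The copy ratio there went the opposite way to that of RP sarcomas 3 and 5, which were higher at the members than beyond them. AD thymic lymphoma 7 had a loss of 10 markers at -1.18 from 17276313 to 17277971, in Tmem191c between Hic2 and Pi4ka.

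**Figure D5:**
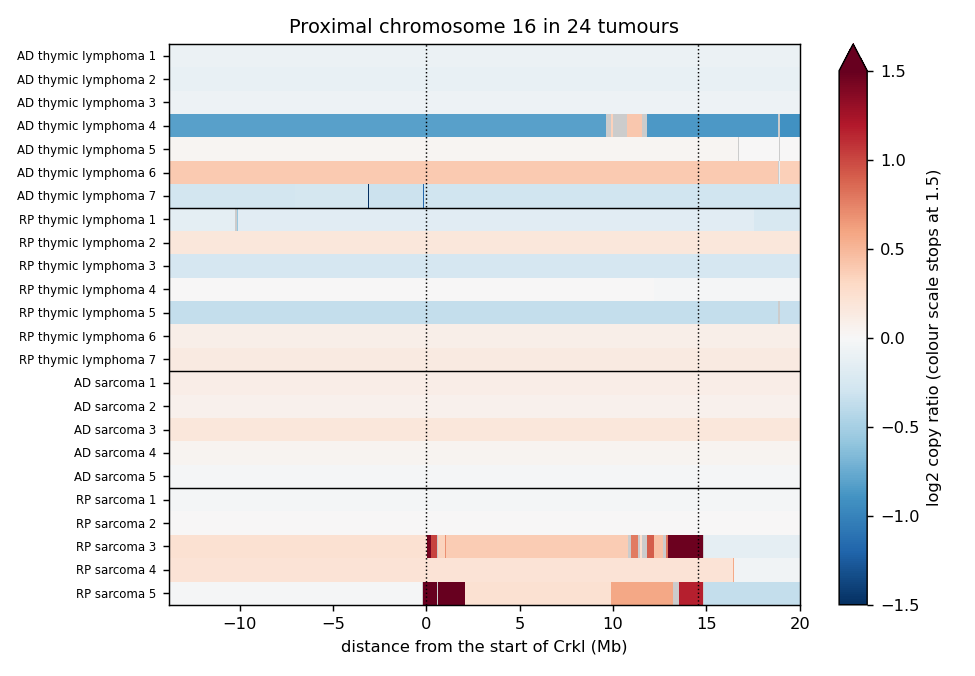
Log2 copy ratio (colour; the scale stops at 1.5, and grey marks gaps without markers) over proximal chromosome 16 in 24 tumours (rows), against distance from the start of Crkl in Mb (x axis), with dotted lines at Crkl and Pak2. Strong red is seen in RP sarcomas 3 and 5, and the strongest blue over both blocks in AD thymic lymphoma 4, at -0.82 and -0.86.

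AD and RP thymic lymphomas, which did not choose the members, were compared by a two-sided exact permutation test over all 3432 splits of 7 against 7, adjusted over all genes with the Benjamini-Hochberg method. The means of Crkl, Pi4ka and Hic2 were -0.14 ± 0.37 in AD and -0.05 ± 0.21 in RP tumours (SD, n = 7 each). The difference was -0.09 for each, AD minus RP (exact permutation p = 0.611, 0.611 and 0.599; adjusted p = 0.752 for all 3). The means of Pak2, Dlg1 and Senp5 were -0.15 ± 0.38 and -0.06 ± 0.21, with a difference of -0.09 (exact permutation p = 0.621, adjusted p = 0.76). The stretch from 18 to 31 Mb differed by -0.08 (exact permutation p = 0.635, n = 7 each), and the whole of chromosome 16 by 0.02 (exact permutation p = 0.849). These differences were smaller than the spread between tumours. Without AD thymic lymphoma 4 their sign turned, to 0.02 for Crkl, Pi4ka and Hic2 and to 0.03 for the others and the stretch between. Chromosome 16 had 6511 markers in each AD and 6512 in each RP thymic lymphoma. Genotype therefore cannot be told apart here from any difference in processing that goes with the marker number.

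Over all 20665 genes the same test called 0, or 0%, with 1766 at an unadjusted p under 0.05, and limma called 0, with 2067. The smallest p that these splits allow is 0.000583, and at least 241 genes would have to reach it for any to pass. The members of a block share segments, so they are not separate pieces of evidence.

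Across the 4 groups the mean of Crkl was highest in RP sarcomas (0.92 ± 1.31), then AD sarcomas (0.07 ± 0.07), RP thymic lymphomas (-0.05 ± 0.21) and AD thymic lymphomas (-0.14 ± 0.37). Pak2 had the same order, at 0.56 ± 0.70, 0.07 ± 0.07, -0.06 ± 0.21 and -0.15 ± 0.38. Each mean was within 1 SD of its neighbours in that order, taking the larger SD of the pair. The autosomal median of single tumours, which was not subtracted, ran from -0.25 to -0.01 in thymic lymphomas and from -0.09 to 0.00 in sarcomas.

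Partners of the members outside the 2 blocks were not amplified in RP sarcomas 3 and 5. Of 19 other genes of Crkl adaptor signalling (such as Crk, Rapgef1, Dock1 and Bcar1), 11 of the PI 4-kinases and their complex, 17 Pak kinases and partners, 11 Dlg and Scribble polarity genes, 10 SUMO pathway genes and Hic1, 0 reached log2 1 in either tumour. At the gain level the count was 1, the SUMO protease gene Senp2, which lies on chromosome 16 between the blocks and stood at 0.38 in RP sarcoma 3. Over all genes, 0.198% reached log2 1 in RP sarcoma 3 and 0.329% in RP sarcoma 5. The gain level was reached by 0.847% and 0.576%. In lists this small such low counts are close to these shares, so nothing is read from them about the partners. The medians of these lists in RP sarcomas ran from -0.03 to 0.10, against -0.01 over all genes.

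Between AD and RP thymic lymphomas, 0 genes of these lists passed the adjusted exact permutation test. At an unadjusted p under 0.05, the adaptor list had 1 gene higher in AD (the focal adhesion gene Pxn, difference 0.25). The PI 4-kinase lists had 2 higher, Pi4k2b (0.19) and Fam126a (0.21), and 1 lower, Efr3a (-0.24). The Pak list had 3 higher, Rac1 (0.27), Git2 (0.25) and Limk1 (0.26), and the polarity list 1 lower, Scrib (-0.25). All the higher genes lie on chromosome 5 and the lower ones on chromosome 15. Over all genes, 1766 of 20665 had an unadjusted exact permutation p under 0.05. The list counts were not tested against that share, and nothing is read from them about the lists. The list medians of the difference ran from 0.04 to 0.10, against 0.04 over all genes.

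The genes on other chromosomes whose values were most like those of Crkl over the 24 tumours were Tmcc1 (Pearson r = 0.58), Gbp2b (0.51) and Tdpoz5 (0.51), and for Pak2 Tdpoz5 (0.73), Gbp2b (0.63) and Gprin3 (0.62). None of them reached log2 1 in RP sarcoma 3 or 5, where they ran from -0.03 to 0.69, so none shared the amplification. Without these 2 tumours, r with Crkl was 0.42 for Tmcc1, 0.72 for Gbp2b and 0.42 for Tdpoz5. For Pak2 it was then 0.42 for Tdpoz5, 0.73 for Gbp2b and 0.34 for Gprin3. On chromosome 16 outside the gained stretches the highest was Cstdc5, with r = 0.08 for Crkl and 0.33 for Pak2. Without RP sarcomas 3 and 5 its r was 0.97 and 0.98. These are descriptions over tumours that share segments, with no test.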

How the data were processed

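For each of 24 tumours the authors deposited a list of copy number segments. The submitters' processing notes name GATK 4.1.0.0, Trim Galore 0.6.5, the build GRCm38 and BWA 0.7.17. Per the file headers, a segment has a start, an end, its marker number and a mean. The deposited mean is taken as log2 of a ratio, as is usual for such tables; the base of the logarithm, the comparison DNA, the segmentation method and the centring were not stated in what was used here. A marker is a position or window tested, so marker numbers in the deposited tables are no read depth.

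A gene took the mean of overlapping segments weighted by overlap, or the nearest segment. The members and gene lists were chosen with earlier results of these data known. Named genes are the members, genes at ends of amplified runs, listed genes inside them and the most correlated genes. Other names, such as Fgf12 and Tmem191c, were picked after their values were seen. Replicate numbers only name tumours. Python 3.11.15, numpy 2.4.6, pandas 2.3.3, matplotlib 3.10.9, R 4.3.3 and limma 3.58.1 were used. The permutation code was tested on simulated data. Alternatives were median centring, the most extreme segment, leaving out segments under 5 markers, 1 Mb bins, other cutoffs, limma and leaving out each tumour. Some listed genes are counted but not reported here by name.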

Additional observations from a re-analysis of the deposited data

Results flagged for a closer look

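Pi4ka and Hic2 stood at 3.01 in RP sarcoma 5, far from the other RP sarcomas, of which the next highest was RP sarcoma 3 at 0.23. The gap was 0.915 of the range of the group. Of 28 groups of values looked at, 2 had such a distant tumour, where chance gives about 1 in 20 per group. Both flags rest on 1 segment of 1 tumour, so they are not separate. The sarcoma values chose the members, so nothing is read from the flags. Crkl, with 3.01 and 1.42 in RP sarcomas 5 and 3, was not flagged by the same measure.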

How the results depend on the processing

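Leaving out 1 thymic lymphoma at a time, the AD minus RP difference ran from -0.18 to 0.02 for Crkl, Pi4ka and Hic2, from -0.18 to 0.03 for Pak2, Dlg1 and Senp5 and from -0.16 to 0.03 for 18 to 31 Mb. The sign turned without AD thymic lymphoma 4. In sarcomas it ran from -1.09 to -0.33 for Crkl, from -0.79 to -0.03 for Pi4ka and Hic2 and from -0.64 to -0.26 for Pak2, Dlg1 and Senp5. Without RP sarcomas 3 and 5 together, an alternative chosen after seeing the data, the differences of Pak2, Dlg1 and Senp5 were each 0.01. In 1 Mb bins the sarcoma difference of Pak2 was 0.01, Crkl was amplified in 1 tumour, and Pak2 was amplified in 0 and gained in 1, since the bin of Pak2 reaches mostly past the shared right end. At a cutoff of 1.5, Crkl was amplified in 1 tumour and Pak2, Dlg1 and Senp5 in 0. Pi4ka and Hic2 were gained in 4 tumours at a cutoff of 0.2 and in 1 at 0.5. The most extreme segment and leaving out short segments changed no count of amplified or gained tumours. Median centring changed no count of amplified tumours. It raised the count of gained tumours from 3 to 4 for Crkl, Pak2, Dlg1 and Senp5 and from 2 to 3 for Pi4ka and Hic2. The count of genes called in thymic lymphomas was 0 under each alternative run. Tumours could not be paired with each other, because each came from a different animal. By title, the 4 ear samples carry animal numbers of tumours in the series, RP sarcoma 3 among them, but they are not analysed here. Read depth is unknown, so the number of tumours sets the precision.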
